A study of Mus musculus with 8 samples.

Results

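The 38 Hox genes described here are members of the Hoxa, Hoxb, Hoxc and Hoxd clusters of the mouse, out of 21887 protein-coding genes of the RefSeq annotation of mm10. They were chosen by name and not by a threshold on the peaks. Each gene was given a window made of its annotated span plus 1 kb on either side, and each cluster was taken from the first to the last of these genes. Peaks of histone H3 acetylated at lysine 27 (H3K27ac), a mark of active promoters and enhancers measured by chromatin immunoprecipitation and sequencing, were overlapped with both.

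The cells were mpkCCD clone 11, an immortalised line of mouse cortical collecting duct, used at passages 6 to 10, so that all libraries came from a single clone and not from separate animals. Confluent monolayers on permeable supports were first held for 24 h without serum or hormones. They then received 0.1 nM dDAVP, an analogue of vasopressin selective for the V2 receptor, or its vehicle for 24 h. Of the 8 libraries, 4 were immunoprecipitated and 4 were inputs, and each of 2 experiments supplied a pair for either treatment. The experiment number serves as the replicate number below, and nothing in the labels says whether the experiments were separate thaws or passages, so any spread between them may be partly technical.

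Each immunoprecipitated library gave 1 peak list. Values for the 4 lists are given in the order dDAVP 1, vehicle 1, dDAVP 2 and vehicle 2 unless named. The lists held 37235, 39745, 20124 and 29597 peaks and covered 99.0, 104, 33.5 and 56.9 Mb. Their immunoprecipitated libraries kept 27923780, 32705755, 31676748 and 31283282 tags, so the shortest list did not have the fewest tags. Of all protein-coding genes, 51.1% had a window that held a peak in all 4 lists. Windows of all 6 principal cell markers (Aqp2, Aqp3, Avpr2, Scnn1a, Hsd11b2 and Gata3) held a peak in all 4 lists. So did 1 of 3 proximal tubule markers (Lrp2), 1 of 3 thick limb and distal tubule markers (Slc12a3), 0 of 3 fibroblast markers, and 2 of 4 leukocyte and endothelial markers (Cd68 and Pecam1). Slc34a1, Slc5a2, Umod, Slc12a1, Pdgfrb and Cdh5 held none in any list.

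Hox genes encode homeodomain transcription factors that give cells their position along the body axis. Within a cluster the genes stand in the order in which they are used, from the anterior genes of paralogue group 1 to the posterior genes of group 13, and genes with the same number in different clusters are paralogues. Their chromatin is known for long stretches in which trithorax proteins keep active marks or Polycomb proteins keep repressive ones. In the kidney, paralogue group 11 is known for its role in the metanephric mesenchyme, and the promoter of Hoxb7 is widely used to direct transgenes to the ureteric bud and the collecting duct.

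In mpkCCD cells the mark lay over long stretches of 3 clusters and was called nowhere in the fourth. It took in the anterior end of Hoxa as given by the members, and left out the genes at both ends of Hoxd. A stretch with gaps ran from Hoxa10 past Hoxa2, another from the far side of Hoxb9 past Hoxb2, and a further one from the Hoxd10 promoter into Hoxd3. The whole Hoxc cluster was free of peaks in every list. Counted as called when a peak overlaps the gene window by at least 1 bp, 22 of 38 Hox genes (57.9%) were called in all 4 lists, against 51.1% of all protein-coding genes. In the single lists 23, 23, 22 and 23 of 38 were called, against 59.3%, 60.1%, 51.3% and 57.0% of all genes. In no list were 15 of 38 called (39.5%), against 38.6% of all genes. Only Hoxa11 was called in some lists and not in others, 1 of 38 (2.63%) against 10.3% of all genes. The share of called members was thus close to that of the annotation as a whole.

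**Figure D1:**
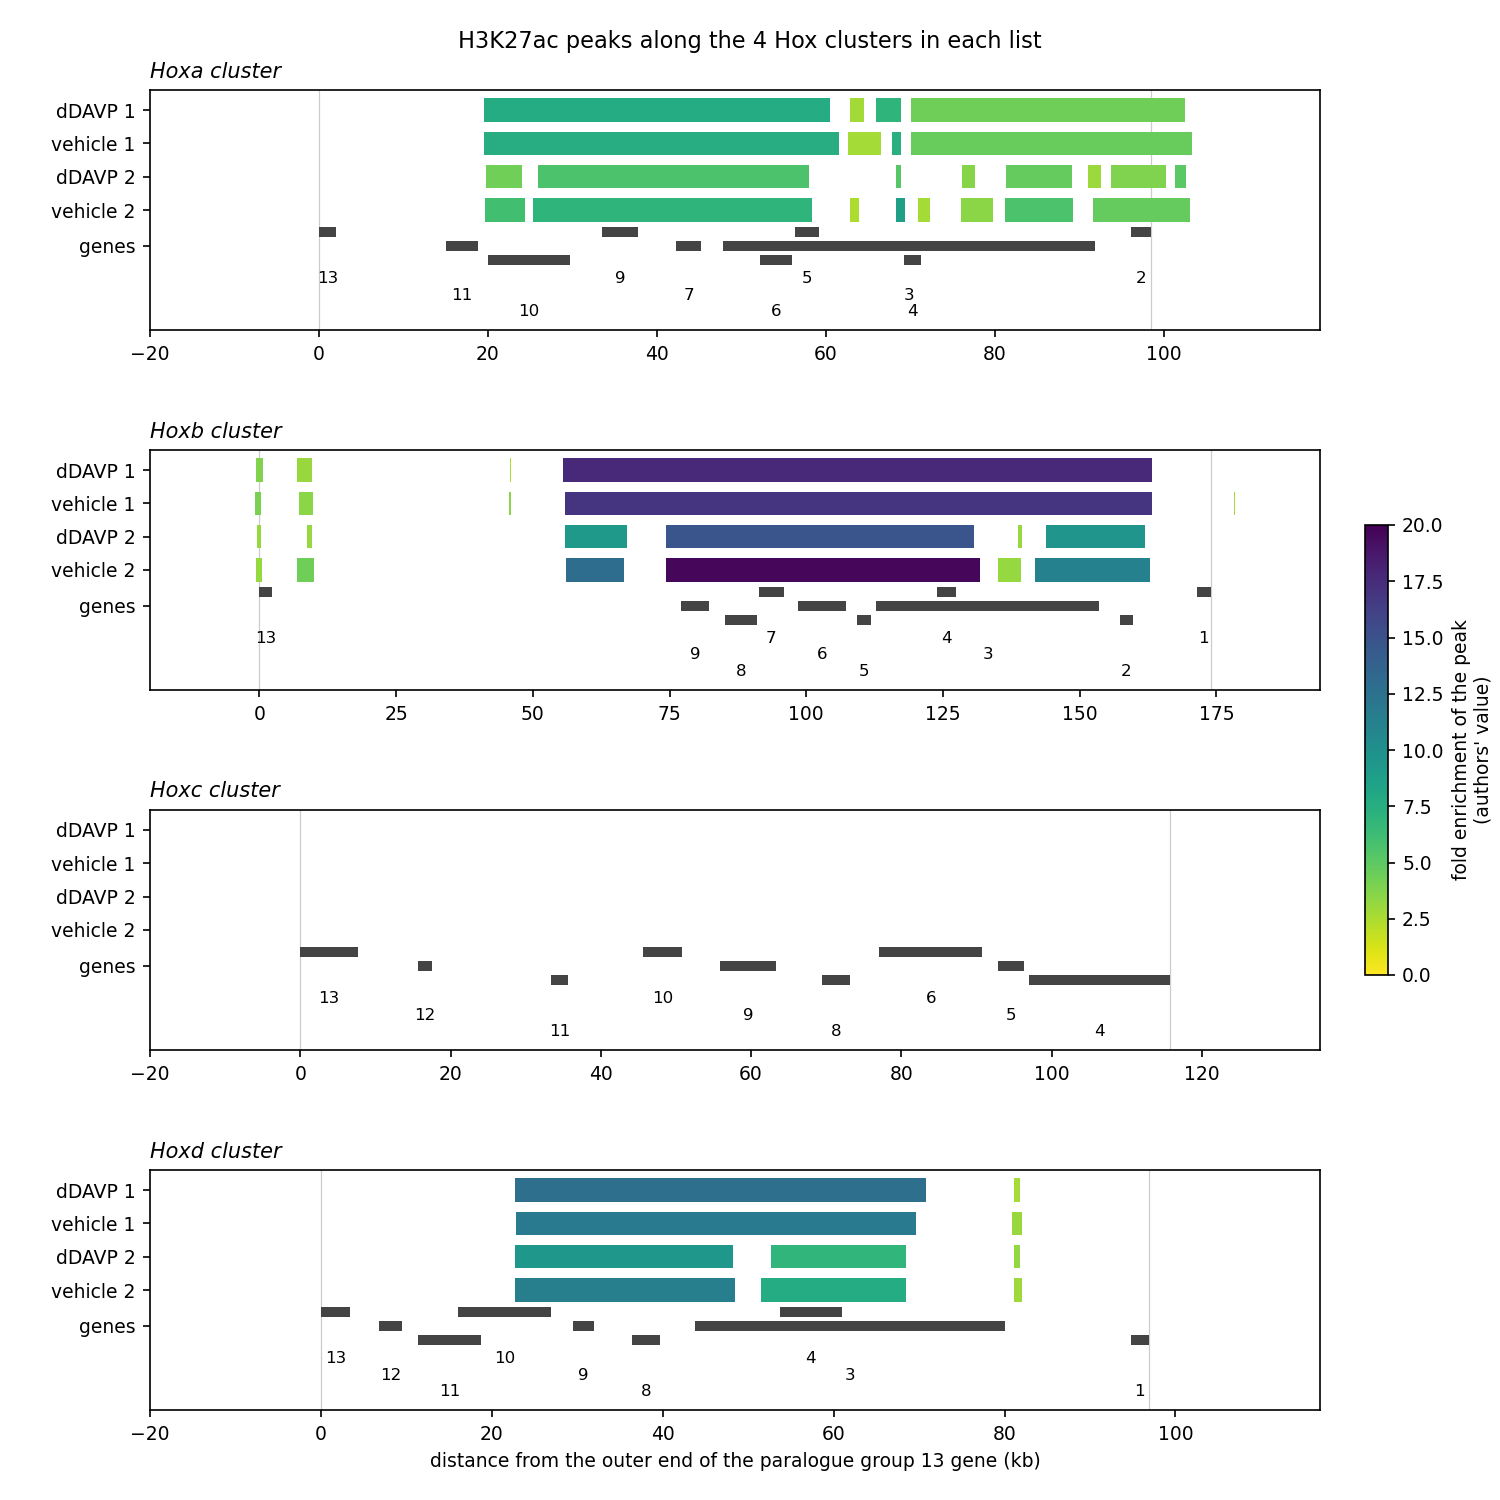
Called H3K27ac peaks (coloured bars) in each of the 4 lists along the 4 clusters, drawn by distance in kb from the outer end of the paralogue group 13 gene, with RefSeq gene spans in grey numbered by paralogue group and the fold enrichment of each peak as colour. Blocks begin and end at nearly the same places in all 4 lists, replicate 2 shows more gaps inside them, and the Hoxc cluster is empty.

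The length of the covered stretches shows in the share of a window that lies inside peaks. The whole window was covered in all 4 lists for 14 of 38 members (36.8%) and for 46 of all 21887 genes (0.210%), so that 30.4% of the genes with this property were Hox genes. Most others were small: 18 of the 46 were histone genes. Among windows at least as long as the shortest of the 14 (4389 bp) there were 22 such genes, namely the 14 Hox genes and 8 others (Hes1, Zfp36l2, Emx2, Muc1, H2bc21, Cdkn2c, Cdkn1b and Zfp36). In windows of at most 12 kb, a limit chosen after the data were seen, 14 of 32 members (43.8%) against 0.580% of 7926 genes were covered throughout, 18 of 32 (56.2%) against 34.5% were called in all 4 lists, and 13 of 32 (40.6%) against 57.7% in none. Neighbouring Hox genes shared the same peaks, so the members are not separate observations.

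Over all 38 members the median covered share of a window was 73.0%, 71.3%, 44.7% and 58.3%. The same median over all genes was 3.76%, 4.07%, 0.481% and 2.07%. Both medians were lower in replicate 2, where the lists were shorter.

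**Figure D2:**
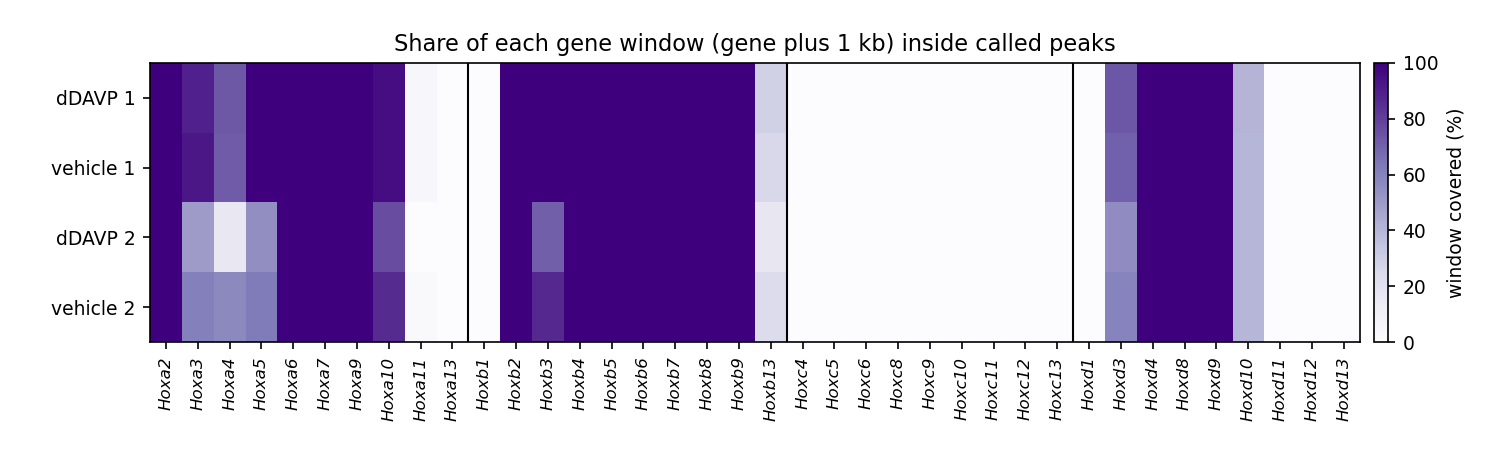
Share of each Hox gene window (gene span plus 1 kb, in percent) inside called peaks, with the 4 lists as rows and the 38 genes as columns in order of paralogue group within clusters A to D. The 14 fully covered genes are dark in every row, and the 9 Hoxc genes and 6 others are blank in all 4.

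Hoxb held the longest stretch of the mark in the data. Its longest peak measured 107645, 107263, 56331 and 57477 bp, and in each of the 4 lists no other peak was longer. When the peaks of the 4 lists were merged, the Hoxb block (chr11:96249878-96357522, 107645 bp) ranked 1 in width among the 16537 merged regions called in all 4 lists. It was also among the most enriched: the authors' fold enrichment over local background was 17.8, 16.9, 14.8 and 19.7, at rank 1, 1, 7 and 4 of its list. Fold values and ranks describe a peak within its own list and are not compared between lists.

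The 7 genes from Hoxb3 to Hoxb9 shared this peak and tied for the highest mean percentile of fold among the members, 99.99. They include Hoxb4, known from blood stem cells, Hoxb7 of the collecting duct lineage, and Hoxb8. Windows of Hoxb2 and of Hoxb4 to Hoxb9 were covered throughout in every list. Hoxb3, whose annotated span is long, had 100% of its window covered in both lists of experiment 1, 70.8% in dDAVP replicate 2 and 86.7% in vehicle replicate 2. In replicate 2 the anterior gene Hoxb2 lay in a separate peak with fold 9.60 (dDAVP) and 11.3 (vehicle).

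At the posterior end the Hoxb block reached far beyond its last gene. Its edge stood at 96249878, 96250219, 96250285 and 96250303, a range of 425 bp. These positions lay 21.0 to 21.5 kb beyond the span of Hoxb9, and 1.36 to 1.78 kb beyond the long noncoding gene Gm53. At the anterior end the edge stood at 96357522, 96357481, 96356179 and 96357206, a range of 1343 bp. It lay 2.16 to 3.50 kb past Hoxb2 and stopped 8.22 to 9.57 kb short of Hoxb1, a gene of hindbrain segment identity that was called in no list.

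Hoxb13, a posterior gene known from the prostate and hindgut, stands apart from the others and was called in all 4 lists by a small peak over the outer end of its span. The peak measured 1228, 1093, 728 and 1015 bp, covered 28.6%, 25.4%, 16.9% and 23.6% of the window, and had a fold of 3.81, 4.02, 3.14 and 3.20. Its mean percentile of fold, 49.1, was the lowest of the 22 called members. It was no longer called in all 4 lists when peaks were held to a fold, or to a -log10 q, of at least 5.

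The Hoxd block spanned chr2:74690924-74739042 and measured 48119 bp in dDAVP replicate 1 and 46825 bp in vehicle replicate 1. In replicate 2 it was split into a pair of peaks, the longer of which measured 25416 bp (dDAVP) and 25748 bp (vehicle). These longest peaks ranked 17, 18, 3 and 12 by length in their lists, and the merged block ranked 30 in width. The peak over Hoxd8, Hoxd9 and Hoxd10 had a fold of 12.8, 11.8, 9.33 and 11.4, and Hoxd4 in the second peak of replicate 2 had 6.88 (dDAVP) and 7.71 (vehicle). Hoxd4, Hoxd8 and Hoxd9 were covered throughout in every list. Hoxd3, with a span that runs past Hoxd4, was covered over 73.3%, 70.6%, 55.5% and 59.3% of its window.

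The posterior edge of the Hoxd block had the smallest range of the 6 edges. It stood at 74690924, 74690999, 74690987 and 74690954 in the 4 lists, a range of 75 bp. That range or less was found at 0.853% of the 33074 edges of all regions called in every list, and at 0.287% of the 698 edges of regions at least 20 kb wide, where the median range was 2798 bp. The edge lay 892 to 967 bp upstream of the annotated start site of Hoxd10 (74691891) and inside the longer annotated span of that gene, so that 40.4%, 39.8%, 39.9% and 40.2% of the Hoxd10 window was covered. The span of Hoxd11, of the kidney-associated group 11, ended 3.91 to 3.98 kb further out and held no peak.

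The anterior edge of Hoxd varied most. Its positions were 74739042, 74737823, 74736699 and 74736714, a range of 2343 bp, which 85.5% of all edges and 43.0% of those of wide regions did not exceed. In each list it lay inside Hoxd3, 23.9 to 26.3 kb short of Hoxd1, and it reached less far in both lists of replicate 2 than in those of replicate 1. Beyond it a small peak of 810, 1162, 617 and 944 bp was called in all 4 lists within the long noncoding gene Haglr. Hoxd1 itself was called in no list, nor were Hoxd12 and Hoxd13, the latter known for digits and the urogenital sinus.

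The promoters of the pair of genes on either side of this border are shown because the mark includes the first and leaves out the second. Each run holds the 250 bases before the annotated start from RefSeq (GRCm38.p6), 5′ to 3′ on the gene's strand, with CG dinucleotides in capitals. Hoxd10 lies at chr2:74691641-74691890 (+) and the outer Hoxd11 start at chr2:74679308-74679557 (+).
Hoxd10: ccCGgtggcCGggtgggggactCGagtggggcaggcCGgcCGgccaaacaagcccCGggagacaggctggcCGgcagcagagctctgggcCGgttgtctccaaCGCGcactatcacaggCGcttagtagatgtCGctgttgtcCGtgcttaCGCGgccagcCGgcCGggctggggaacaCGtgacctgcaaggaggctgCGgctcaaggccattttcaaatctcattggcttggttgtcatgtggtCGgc
Hoxd11: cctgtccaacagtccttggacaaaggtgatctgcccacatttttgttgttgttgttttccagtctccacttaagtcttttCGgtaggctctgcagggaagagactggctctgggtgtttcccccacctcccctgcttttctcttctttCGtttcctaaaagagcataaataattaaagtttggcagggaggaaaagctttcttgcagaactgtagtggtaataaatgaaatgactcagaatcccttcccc
The Hoxd10 run holds 20 CG and 65.6% G or C, and lay wholly inside peaks in all 4 lists. The Hoxd11 run holds 2 CG and 44.8% G or C, and lay in none. The inner annotated start of Hoxd11, also uncalled, has 20 CG in the same length, as many as Hoxd10.

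The Hoxa block (chr6:52157592-52241346, 83755 bp) had a lower highest fold than the Hoxb and Hoxd blocks in each list, and more gaps. Its longest peak, over Hoxa5 to Hoxa10, measured 40923, 42062, 32000 and 32998 bp, at rank 25, 22, 2 and 5 by length. Fold in that peak was 7.69, 7.50, 5.69 and 6.99. Hoxa6, Hoxa7 and Hoxa9, the last known from leukaemia, were covered throughout in every list. Hoxa10, known from the uterus, was covered over 95.6%, 95.6%, 76.3% and 86.2% of its window. Hoxa5, known from lung development, was covered throughout in replicate 1 and over 54.9% (dDAVP) and 62.5% (vehicle) in replicate 2.

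On the anterior side of the Hoxa block the fold differed between peaks. A peak at Hoxa4 measured 3022, 1065, 641 and 1036 bp. It had a fold of 6.99, 7.33, 5.23 and 8.75, the last of these the highest in the block in its list. This peak overlapped the Hoxa4 span only in vehicle replicate 2 and otherwise began in the 1 kb margin. In dDAVP replicate 2 no peak reached the span, so Hoxa4 was called there only through its margin. Hoxa2, a gene of the hindbrain and pharyngeal arches, was covered throughout in all 4 lists, by peaks with a fold of 4.39, 4.63, 3.89 and 4.71 and a mean percentile of 65.2, the second lowest among the called members. Hoxa3, of the pharyngeal organs, was covered over 89.3%, 92.5%, 49.5% and 61.1% of its window. Hoxa4 was covered over 72.8%, 72.1%, 15.9% and 57.4%, the widest spread between lists of the 22 called genes, and its mean percentile of 87.4 was the third lowest. The 5 genes from Hoxa5 to Hoxa10 followed with 87.96 each.

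The anterior edge of the Hoxa block stood at 52158428, 52157592, 52158231 and 52157784, a range of 836 bp, 3.99 to 4.83 kb beyond Hoxa2. It fell within the noncoding gene Hotairm2 and just outside Hotairm1. When peaks were held to a fold of at least 5, the mean of the 4 positions moved inwards from 52158009 to 52178440. The lists then no longer shared this edge. It stayed at 52158231 in dDAVP replicate 2, and the positions ran up to 52191955, a range of 33724 bp. The posterior edge stood at 52241338, 52241346, 52241075 and 52241223. Its range of 271 bp or less was found at 11.2% of all edges and 2.01% of edges of wide regions. In every list it lay 221 to 492 bp upstream of the outer Hoxa10 start and 759 to 1030 bp short of the Hoxa11 span. Hoxa11 was therefore called only through its 1 kb margin, with 4.10%, 4.24%, 0% and 2.09% of its window covered. No peak reached the Hoxa11 span in any list, and Hoxa13, known for distal limb and genital development, was called in none.

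The same border is shown for Hoxa in the promoters of Hoxa10 (outer start, chr6:52240855-52241104, − strand) and Hoxa11 (chr6:52245811-52246060, − strand), printed in the same way.
Hoxa10: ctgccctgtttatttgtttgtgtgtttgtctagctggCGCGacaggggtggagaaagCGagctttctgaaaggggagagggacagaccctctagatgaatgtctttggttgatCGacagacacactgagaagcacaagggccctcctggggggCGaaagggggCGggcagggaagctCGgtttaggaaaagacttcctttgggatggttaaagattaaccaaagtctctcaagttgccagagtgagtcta
Hoxa11: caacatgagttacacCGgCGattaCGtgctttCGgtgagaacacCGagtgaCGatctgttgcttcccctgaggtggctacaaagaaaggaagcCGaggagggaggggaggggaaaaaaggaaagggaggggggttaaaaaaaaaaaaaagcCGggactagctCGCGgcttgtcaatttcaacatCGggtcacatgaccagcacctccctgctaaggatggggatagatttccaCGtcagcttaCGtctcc
The Hoxa10 run overlapped peaks in all 4 lists and lay wholly inside them in 3. It holds 7 CG, fewer than the 13 of the Hoxa11 run, which lay in no peak. In the printed runs CG content therefore stood in opposite order at these borders, higher on the marked side in Hoxd and lower in Hoxa. That order depended on the start chosen. The inner Hoxa10 start, called in 3 lists, has 20 CG, more than the Hoxa11 run, and the inner Hoxd11 start has as many as Hoxd10.

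Across the 24 annotated start windows available for 22 members, 14 were called in all 4 lists, 9 in none and 1, the inner Hoxa10 start, in 3. Of all 32851 promoter windows 30.3% were called in all 4. Called member windows held a median of 12 CG (range 3 to 28) and uncalled ones 13 (range 2 to 35), against 6 over all promoters. The 16 members without a window were mostly of Hoxb and Hoxc. Hoxc4 was the single Hoxc gene with a window, so these medians describe mainly Hoxa and Hoxd. Hoxa13 with 35 CG and Hoxd13 with 31 were among the uncalled. The motif TGACGTCA, the full cyclic AMP response element, was searched on both strands and was in 0 of 24 windows, against 1.55% of all promoters. Its first 5 bases TGACG were in 4 of 14 called and 3 of 9 uncalled windows, against 17.8% of all. CCAAT was in 8 of 14 and 5 of 9, against 33.8%. The homeodomain motif TGATTGAT was in the windows of Hoxa2 and the inner Hoxd11 start, against 0.670% of all. These matches describe letters in the windows and not binding.

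The Hoxc cluster (chr15:102921131-103036856) had no peak in any list over its 9 genes. They include Hoxc8, Hoxc9 and Hoxc10, known from spinal motor neurons, Hoxc11, a paralogue in the kidney-associated group, and Hoxc13, known from hair follicles. The stretch without peaks around it measured 387, 405, 440 and 405 kb. Such lengths were not rare in these lists, as 3.06%, 2.77%, 5.55% and 3.94% of the spaces between adjacent peaks were at least as long. The nearest peaks lay 181 to 198 kb beyond Hoxc13 and 90.1 to 126 kb beyond Hoxc4. Smug1, a DNA repair gene on the Hoxc4 side, was called in all 4 lists. An uncalled stretch holds no peak past the caller's limit, and acetylation below that limit was not measured here.

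By position in the body plan, 5 of 7 anterior members (groups 1 to 3), 11 of 15 central members (groups 4 to 8) and 6 of 16 posterior members (groups 9 to 13) were called in all 4 lists, against 51.1% of all protein-coding genes. Genes of a stretch share peaks and the 9 Hoxc genes have none, so these counts are not over separate observations. The 6 posterior genes were Hoxa9, Hoxa10, Hoxb9, Hoxb13, Hoxd9 and Hoxd10. No member of group 11 or 12 was, nor Hoxa13, Hoxc13 and Hoxd13. Group 1 (Hoxb1 and Hoxd1 here) was also uncalled. The uncalled central genes were the 4 of Hoxc.

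**Figure D3:**
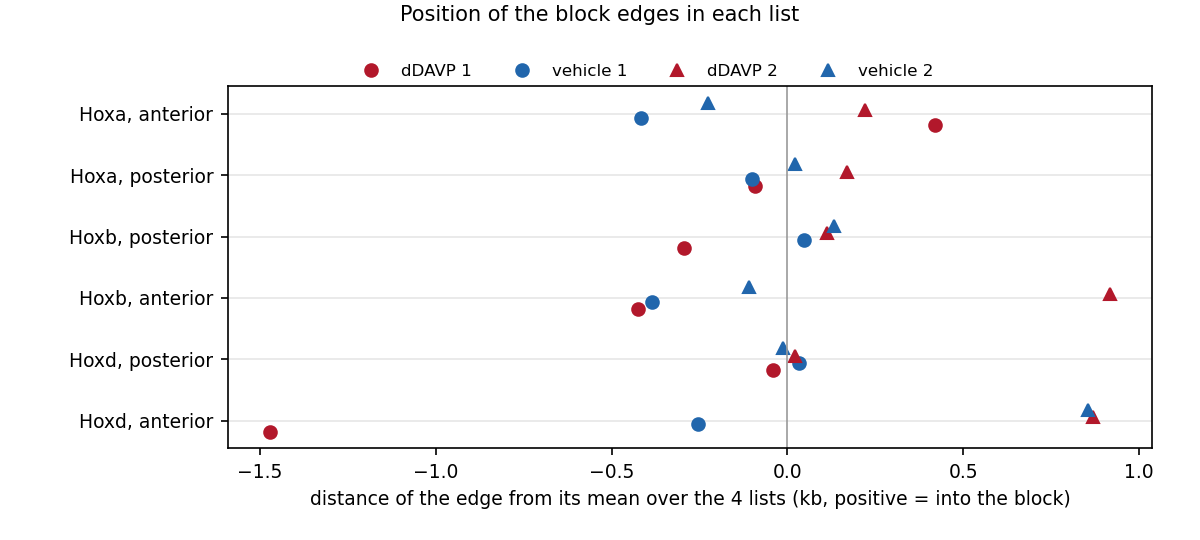
Position of each of the 6 block edges in the 4 lists, as distance in kb from the mean of the 4, with positive values pointing into the block. Circles are experiment 1 and triangles experiment 2, red is dDAVP and blue vehicle; the Hoxd posterior edge spans 75 bp and the Hoxd anterior edge 2343 bp.

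The 3 posterior edges had ranges of 75, 271 and 425 bp and the 3 anterior edges 836, 1343 and 2343 bp, so that every posterior edge varied less than every anterior one. Over all regions called in 4 lists the median range of an edge was 848 bp. The share of all edges with that range or less was 22.6% for the Hoxb posterior edge, 49.3% for the Hoxa anterior edge and 68.1% for the Hoxb anterior edge. Against edges of regions at least 20 kb wide the shares were 4.30%, 10.7% and 20.9%. Edges were read from peaks, whose limits depend on the fragment length the caller modelled (255, 241, 215 and 210 bp), and its part in these ranges was not tested.

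**Figure D4:**
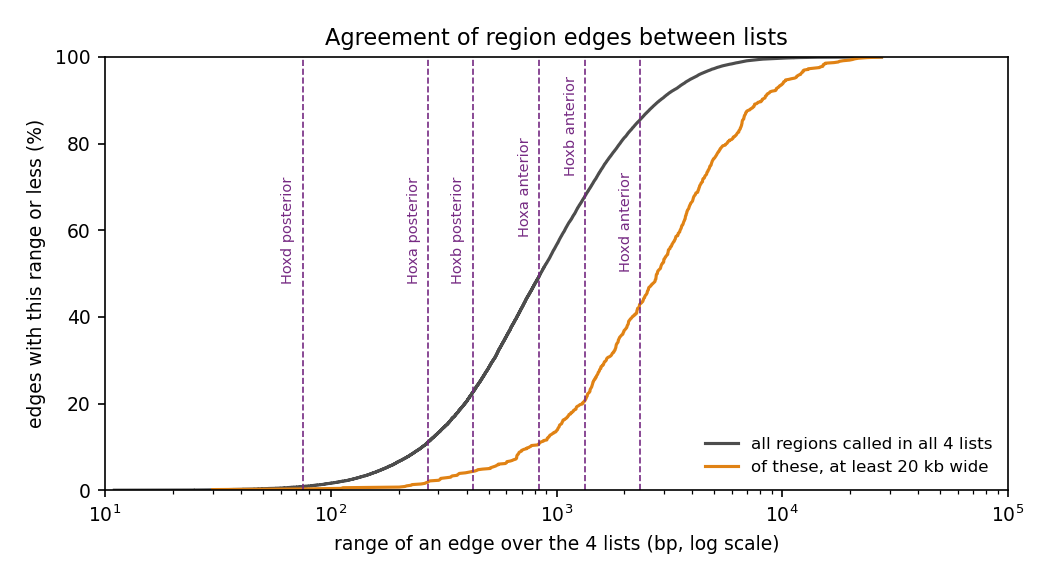
Cumulative share (percent) of region edges by their range over the 4 lists in bp (log axis), for all 33074 edges of regions called in every list and for the 698 edges of those at least 20 kb wide; dashed lines mark the 6 Hox edges. All 6 lie left of the 2798 bp median of wide regions.

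Inside the blocks the lists differed by experiment. The 3 blocks were made of 6 separate peaks in each list of replicate 1 and of 14 in each list of replicate 2. In Hoxb, replicate 1 had no gap and replicate 2 had 3, which added up to 19.6 kb with dDAVP and 13.3 kb with vehicle. Much the same part of the block was left uncalled in both: 96261497 to 96268616 with dDAVP and 96261073 to 96268663 with vehicle, beyond Hoxb9. The other gaps lay in Hoxb3. In Hoxd the gap of replicate 2 lay in Hoxd3 and measured 4.46 kb (dDAVP) and 3.02 kb (vehicle). In Hoxa there were 3, 3, 7 and 7 gaps, adding up to 4.95, 3.45, 27.1 and 18.9 kb, the longest of them 10.3 kb in dDAVP replicate 2 across Hoxa3 and Hoxa5.

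The Hoxb gap beyond Hoxb9 held a microRNA gene. Hox clusters carry the miR-10 and miR-196 families, which are known to repress Hox messages, and miR-615. Mature sequences from RefSeq (GRCm38.p6) are shown 5′ to 3′ with the seed, bases 2 to 8, in capitals. They are shown because the same mature sequence is encoded in a marked and an unmarked cluster.
miR-10a-5p: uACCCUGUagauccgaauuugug
miR-10b-5p: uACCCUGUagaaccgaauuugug
miR-196a-5p: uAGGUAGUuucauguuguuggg
miR-196b-5p: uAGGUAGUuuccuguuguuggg
miR-615-3p: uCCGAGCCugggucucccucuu
miR-10a-5p and miR-10b-5p share a seed and differ by U12A, counted from the 5′ end with the miR-10a base first. miR-196a-5p and miR-196b-5p share another seed and differ by A12C, with the miR-196a base first. Mir10a, between Hoxb4 and Hoxb5, Mir10b, within the span of Hoxd4, and Mir196b, between Hoxa9 and Hoxa10, lay wholly inside peaks in all 4 lists. Mir196a-1, beyond Hoxb9, lay inside the block in both lists of replicate 1 and in the gap in both lists of replicate 2. Mir196a-2, which encodes the same miR-196a-5p from Hoxc, and Mir615, also in Hoxc, were in no peak.

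Despite the gaps the lists placed the mark largely on the same bases. The share of covered bases in common, divided by bases covered in either list, was 0.970 in the 4 clusters between dDAVP and vehicle of experiment 1, against 0.681 over the genome. In experiment 2 it was 0.894 against 0.551. Between experiments it was 0.777 for dDAVP and 0.849 for vehicle, against 0.330 and 0.490. In each of the 6 pairs of lists, 98.5% to 99.99% of the Hox bases covered in the smaller were covered in the larger, against 83.1% to 98.8% over the genome. Bases covered in all 4 lists made up 52.7% of Hoxa, 49.9% of Hoxb, 43.2% of Hoxd and 0% of Hoxc. Both lists of replicate 1 and neither of replicate 2 covered 12.6%, 7.57% and 4.35% of the first 3.

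Calls of Hox genes with dDAVP and vehicle were the same except for Hoxa11, which in experiment 2 was called with vehicle, over 2.09% of its window, and not with dDAVP. Called in both dDAVP lists and in no vehicle list were 0 of 38 members, against 0.00914% of all genes, and the reverse held for 0 of 38, against 0.461%. Both background shares are so low that a count of 0 among 38 genes is no result about the members. Without dDAVP replicate 1, Hoxa11 made the second count 1. Of the bases, 0% in each cluster were covered in both dDAVP lists and in no vehicle list. Covered in both vehicle lists and in no dDAVP list were 0.00203% of Hoxa, 0.0454% of Hoxb and 0.174% of Hoxd. Among genes called in all 4 lists, Hoxa3 and Hoxa10 had a lower covered share with dDAVP in both experiments, 2 of 38 (5.26%) against 24.4% of all genes. A higher share in both was found for 0 members, against 2.06%. The 14 fully covered genes could move in neither direction by this measure. For Hoxa10 the difference in experiment 1 was very small, with 11142 bp covered with dDAVP and 11150 bp with vehicle.

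The 4 clusters together were covered over 48.2%, 48.3%, 37.5% and 41.4% of their bases. The dDAVP lists averaged 42.9% ± 7.57 (SD, n = 2). The vehicle lists averaged 44.8% ± 4.86 (SD, n = 2). Their difference of -1.93 percentage points was smaller than either SD. An exact permutation test of that difference, two-sided and without the pairing by experiment, gave p = 0.667. With 2 lists per treatment that test cannot go below 0.33, and no difference could have passed. Within experiments the difference was -0.00557 and -3.85 points, and leaving out vehicle replicate 1 or dDAVP replicate 2 turned it to 1.51 or 3.43.

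**Figure D5:**
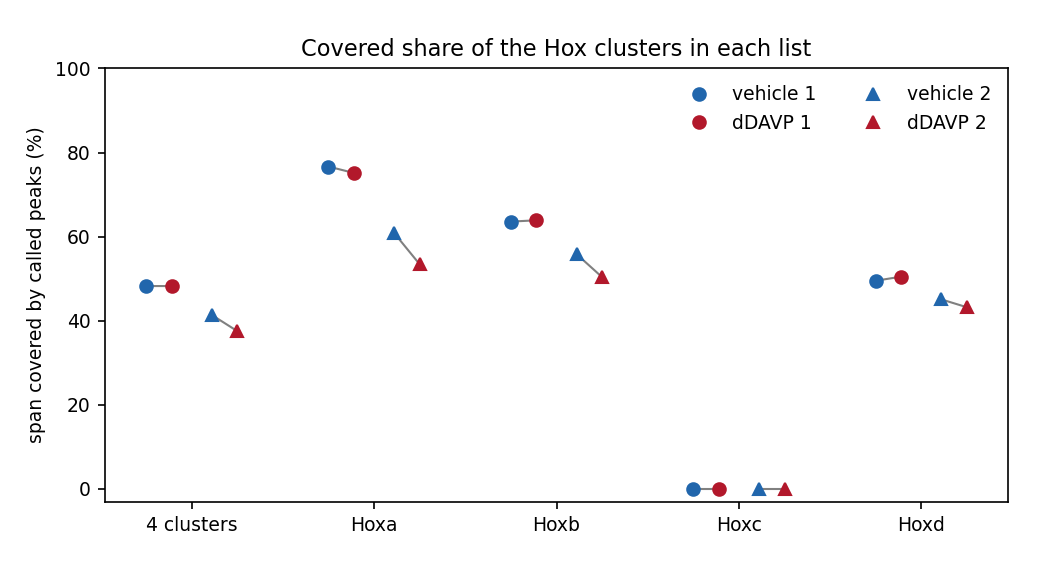
Share of each cluster span (percent) inside called peaks in the 4 lists, with lines joining vehicle (blue) and dDAVP (red) of the same experiment; circles are experiment 1 and triangles experiment 2. Values for the 4 clusters together run from 37.5% to 48.3%, and every marked cluster lies lower in experiment 2.

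The lists themselves differed more than the clusters did. In experiment 2 the dDAVP list covered 0.590 of the bases that the vehicle list covered over the genome, and 0.907 in the Hox clusters. In experiment 1 these ratios were 0.951 and 1.00. Between experiments, replicate 2 over replicate 1, the ratio was 0.339 over the genome and 0.778 in the clusters for dDAVP, and 0.546 and 0.858 for vehicle. By cluster, covered shares were 75.1%, 76.7%, 53.4% and 60.9% in Hoxa, 63.9%, 63.6%, 50.4% and 55.8% in Hoxb, and 50.5%, 49.5%, 43.2% and 45.1% in Hoxd. Treatment and list length cannot be told apart in experiment 2.

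Outside the clusters the mark was sparser than within the 3 marked ones. The 100 kb on either side were covered over 3.59%, 5.16%, 1.78% and 4.28% around Hoxa, and over 16.6%, 18.1%, 6.07% and 14.0% around Hoxb. The Hoxa values include the anterior end of the Hoxa block itself, whose edge lay 3.99 to 4.83 kb beyond Hoxa2. Around Hoxd the values were 1.98%, 1.95%, 1.18% and 1.64%, and around Hoxc 2.39%, 2.5%, 0% and 0.456%. Evx1 and Evx2, homeobox genes beyond the posterior ends of Hoxa and Hoxd, and the long noncoding genes Hottip (Hoxa) and Hotair (Hoxc) were called in no list. Hotairm1 at the anterior end of Hoxa was called in all 4.

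Genes whose products act with or on Hox genes were counted by the same rule in lists of their own, beside the 51.1% of all genes called in all 4 lists. Among Hox cofactors of the Meis and Pknox families, which bind DNA with Hox proteins, Meis2 and Pknox1 were called in all 4 lists, Meis1 and Pknox2 in none and Meis3 in some. Of 26 Polycomb genes, 25 were called in all 4, with Phf19 in some. The next list joined trithorax and H3K27 demethylase genes with Dot1l, Mllt3, Aff1 and Psip1. All 12 of its genes were called in all 4, including Kmt2a, Kdm6a and Kdm6b. Among 10 inducers and boundary factors, 6 were (Cdx2, Rara, Rarg, Rxra, Ctcf and Rad21), while Cdx1 and Cdx4 were called in none. Gdf11, a growth factor that promotes posterior Hox expression, had peaks over 2.29% and 5.07% of its window with vehicle (replicates 1 and 2) and none with dDAVP. That pattern was found for 0.461% of all genes, and the vehicle list held more peaks than the dDAVP list in both experiments.

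Of 35 homeobox genes outside the clusters, 10 were called in all 4 lists, 23 in none and 2 in some. Those called in all 4 include Dlx1, Dlx2, Msx2, Otx1, Irx2 and Emx2, which acts in the ureteric bud. Emx2 was the single gene of this list whose whole window was covered in all 4 lists.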

How the data were processed

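H3K27ac peaks were analysed from 4 lists, 1 per immunoprecipitated mpkCCD library, in 2 dDAVP and 2 vehicle libraries. Per the file headers, the caller was MACS 2.1.1.20160309 with broad regions, run on each library against the matching input without pooling, at q-value limits of 0.01 (strong) and 0.1 (broad). Reads were handled with BWA and SAMtools on mm10, per the submitters' processing notes. The deposited pileup column is a coverage signal, the fold column holds the authors' ratio to local background, and a pair of deposited columns with lost names fit the caller's -log10 p and -log10 q. Fold is the authors' own value per peak. The lists are attached to the input records, while their headers name the immunoprecipitated library, and names of single peaks in the experiment 2 lists carry another experiment number. No read counts per region were used here, so intervals from counts were not computed. The tags kept per library limit the precision of a call.

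Peaks on the 19 autosomes, X and Y were kept, and those on other scaffolds (5 to 22 per list) were left out. Covered bases, gaps and edges were computed in Python 3.11.15 with pandas 2.3.3 and numpy 2.4.6, and the counting was tested on simulated peaks. Gene spans, promoters and microRNAs came from RefSeq tables of GRCm38.p6 (mm10); promoter windows matched 22 of 38 members, and 16 were not found. Of the 33 non-member genes listed in or near the clusters, 32 matched. A block is the stretch between the outermost merged regions, at least 20 kb wide, in a cluster. The results of some listed non-member genes are not reported here. The members, gene lists and rules were chosen with earlier results of these data known. All 38 members are accounted for; those given values in every list are at the ends of each stretch, differ between lists, or have the 5 highest or 5 lowest mean percentiles of fold, ties included. Experiment numbers come from the sample titles, and lists of the same experiment shared more bases (0.970 and 0.894 in the clusters) than lists of the same treatment (0.777 and 0.849). The test was an exact permutation test over lists. Alternatives were peak thresholds, list lengths, windows, left-out lists, the pairing and, added after the data were seen, the 12 kb window limit and the joining of peaks under 1 kb apart for counts of separate peaks.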

Additional observations from a re-analysis of the deposited data

How the results depend on the processing

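The count of 22 Hox genes called in all 4 lists was 20 with a -log10 q of at least 5, with a fold of at least 5 and with lists of equal covered bases, each time without Hoxa2 and Hoxb13. It was 22 with lists of equal number, 21 with no margin (without Hoxa4) and 23 with a margin of 2.5 kb. It was 18 when at least 50% of the window had to be covered, and 22 to 23 when a list was left out. The count of 0 dDAVP-only genes did not change under these settings. The count of vehicle-only genes was 0 to 1 with a list left out, the 1 being Hoxa11 without dDAVP replicate 1, and 0 under the others. The covered share of the clusters, dDAVP minus vehicle, was -1.93 points, and -1.51, -1.75, -1.33, -0.441 and -1.90 with the q limit, the fold limit, equal numbers, equal bases and 10 kb added. It ran from -7.28 to 3.43 with a list left out, and reversed without vehicle replicate 1 (1.51) and without dDAVP replicate 2 (3.43). With the replicate block, which pairs lists of an experiment, it was -1.93 (exact permutation p = 0.5, the smallest that 2 pairs allow). At a fold of at least 5 the mean Hoxa anterior edge moved from 52158009 to 52178440, and its range over the lists rose from 836 to 33724 bp. The mean Hoxa posterior edge moved from 52241246 to 52239710, and its range rose from 271 to 6413 bp. That limit removed weaker outer peaks in some lists and not in others. The other 4 edges did not move beyond their spread. With peaks under 1 kb apart joined, the 3 blocks held 6, 5, 14 and 13 separate peaks. Depth was 27923780 to 32705755 tags, and acetylation too weak to be called was not measured.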
